A study of Rattus norvegicus with 9 samples.

Results

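Adenosine in the rat uterus was examined through 8 genes: Entpd1 and Nt5e, which produce it outside the cell, Ada, Adk and Slc29a1, which remove it, and the receptor genes Adora1, Adora2a and Adora2b. They were found by gene symbol among the 14217 genes that the platform annotation names with a single symbol, and each gene was read from its brightest probe set on average. The set was chosen by the fold changes and adjusted p-values of treatment against control rats, where Ada and Nt5e had passed the test in an earlier analysis of these arrays. That comparison is therefore given below as a description with no test of the members. All 8 genes were among the 10973 that passed the filter on low values, some only just.

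Cells release ATP, which the ectonucleotidase encoded by Entpd1 cuts to AMP and the enzyme encoded by Nt5e then cuts to adenosine. Adenosine acts on G protein-coupled receptors that lower cAMP (Adora1) or raise it (Adora2a and Adora2b), is carried across the membrane by transporters such as Slc29a1, and inside the cell is turned into AMP by adenosine kinase (Adk) or into inosine by adenosine deaminase (Ada). In the mouse, Ada is known for very high expression in the decidua and placenta, where its product keeps adenosine low.

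The arrays, 9 from Affymetrix, measured RNA of whole uterus from female rats, 3 arrays in each of 3 groups. Treatment rats (arrays 31, 32 and 33) received electroacupuncture at the Guanyuan and Sanyinjiao points for 15 min a session on 7 consecutive days, then an intraperitoneal injection of PMSG (pregnant mare serum gonadotropin, 0.5 U per rat) and 48 h later the same amount of HCG (human chorionic gonadotropin), while acupuncture went on. Model rats (21, 22 and 23) received PMSG and HCG without acupuncture, and control rats (41, 42 and 43) received nothing. The labels describe 18 rats, 6 in a group, give no strain, age or oestrous stage, and do not say that each array is a separate animal, so p-values measure the spread between these arrays, which may be technical. Bulk tissue was measured, and fewer cells of a type cannot be told apart from less RNA per cell.

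Median intensities of the arrays were 23.5 to 23.96. Control 43 stood apart: across the genes tested its log2 intensities correlated at 0.887 and 0.916 with controls 41 and 42, against 0.972 with model 21, and controls 41 and 42 correlated at 0.980. Where a reported test of a member or named purine gene changed its call without this array, values are given with and without it. Of 11 genes of uterine identity 9 passed the filter, among them Pgr, Hoxa10 and Hoxa11, whereas the Esr1 probe set lay below it.

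On their brightest probe sets, the enzymes at the last step of adenosine production and the first steps of its removal separated both hormone-treated groups from untreated rats. Nt5e measured 207, 189.8 and 175 (intensity) in treatment rats and 180.1, 155 and 182 in model rats, against 60.3, 105 and 78.0 in control rats. All 6 arrays of rats given gonadotropins lay above all 3 controls. Ada went the other way, with 78.1, 153 and 64.5 in treatment rats and 127, 94.5 and 92.0 in model rats, against 474, 336 and 309 in control rats. The 6 lay below all 3 controls, with no overlap. Adk measured 526, 503 and 475 in treatment rats and 459.5, 477 and 522 in model rats, against 242, 301 and 418 in control rats. All 6 lay above the controls here too, with control 43 the nearest. On the dimmer Adk probe set model and control arrays overlapped. Treatment and control values led to the choice of these genes, so the splits are a description. Of all genes, 14.5% did not overlap between model and control rats and 23.3% between treatment and control rats. A split of all 6 arrays from the controls was not counted over all genes.

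**Figure D1:**
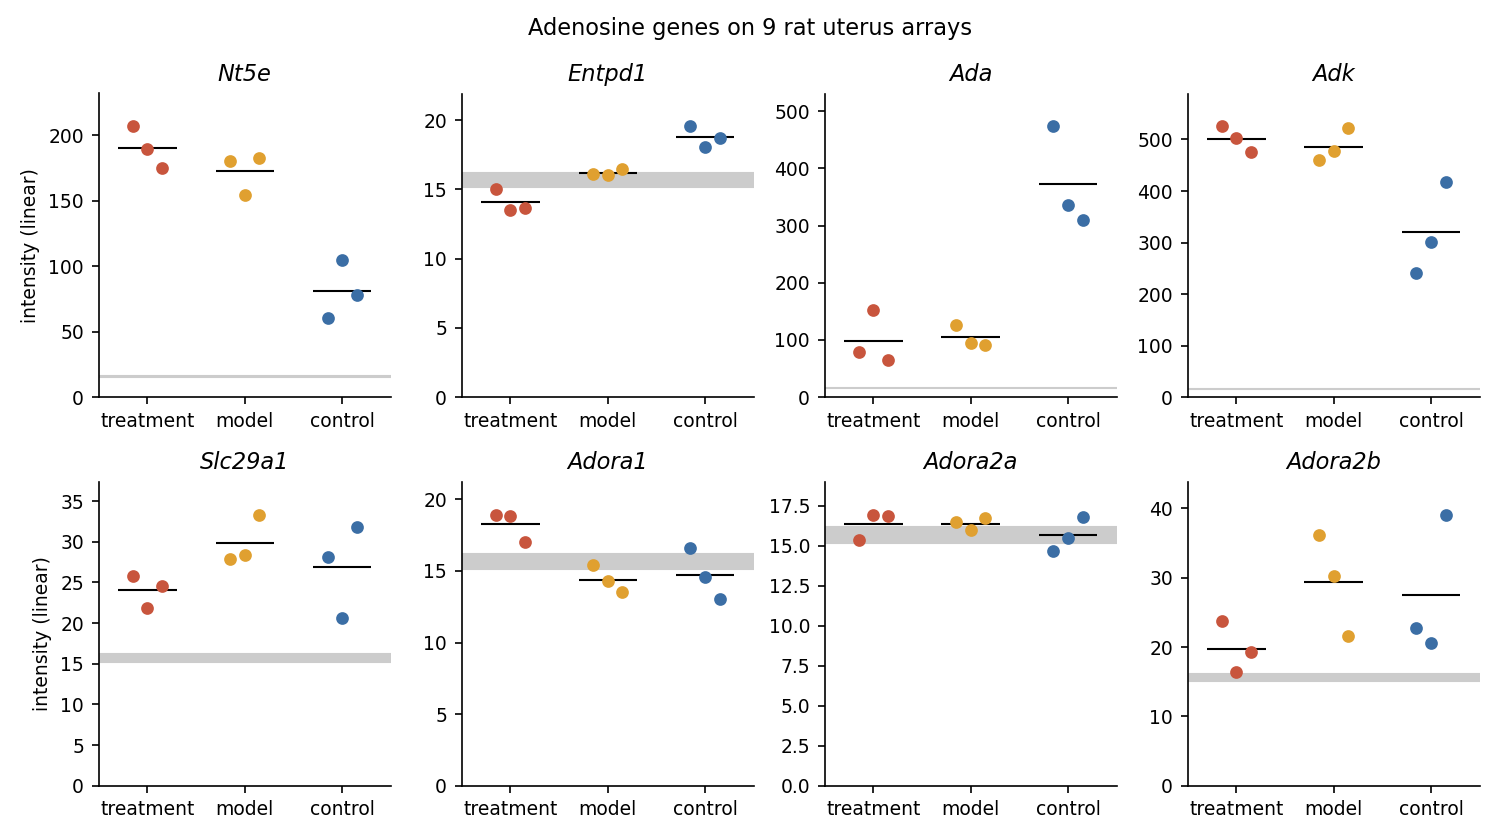
Intensity on a linear scale of the 8 adenosine genes on each array, by group, with points for arrays and lines for the mean of 3 arrays. The grey band is the range of the 40th percentile over the arrays (15.16 to 16.17). Nt5e and Adk lie higher and Ada lower on all treatment and model arrays than on the control arrays, while Entpd1, Adora1 and Adora2a lie near the band.

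Promoter windows of Nt5e, Ada and Adk are shown because on their brightest probe sets neither hormone-treated group overlapped the controls. RefSeq (GRCr8) windows run from 250 bases before to 50 bases after the gene start, 5′ to 3′ on the gene's strand, and 7 of the 8 members have one. Capitals mark matches on either strand. The promoter elements searched were the GC box, read as GGGCGG, the TATA box, read as TATAAA, and the CCAAT box by its own letters. Response elements were read by their cores. For cAMP the core was TGACG. For hypoxia it was GCGTG. Nuclear receptors were read as AGGTCA. The steroid element, which binds progesterone and glucocorticoid receptors, was read as TGTTCT.
Nt5e, chr8:98150675-98150974, plus strand: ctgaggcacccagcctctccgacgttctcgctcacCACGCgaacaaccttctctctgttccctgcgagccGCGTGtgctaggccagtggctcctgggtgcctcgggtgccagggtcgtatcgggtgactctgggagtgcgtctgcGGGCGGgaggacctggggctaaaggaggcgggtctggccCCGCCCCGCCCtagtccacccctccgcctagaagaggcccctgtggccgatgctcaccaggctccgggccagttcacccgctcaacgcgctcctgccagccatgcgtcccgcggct
Ada, chr3:172842234-172842533, minus strand: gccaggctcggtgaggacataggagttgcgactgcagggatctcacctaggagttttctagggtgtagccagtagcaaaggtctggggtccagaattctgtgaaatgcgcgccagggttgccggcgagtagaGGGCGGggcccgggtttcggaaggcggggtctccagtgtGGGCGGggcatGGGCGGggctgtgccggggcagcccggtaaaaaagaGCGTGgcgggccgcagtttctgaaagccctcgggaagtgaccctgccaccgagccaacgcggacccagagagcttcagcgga
Adk, chr15:3295696-3295995, minus strand: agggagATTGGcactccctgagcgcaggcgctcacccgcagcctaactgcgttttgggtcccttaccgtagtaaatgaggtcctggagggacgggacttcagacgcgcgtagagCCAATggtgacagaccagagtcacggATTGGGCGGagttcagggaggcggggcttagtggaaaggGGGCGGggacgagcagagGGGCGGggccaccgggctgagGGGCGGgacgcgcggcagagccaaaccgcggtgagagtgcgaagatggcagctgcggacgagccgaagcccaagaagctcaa
The Nt5e window held 3 GC boxes, of which a pair share a base, and 2 GCGTG cores. The Ada window held 3 GC boxes and 1 GCGTG core, and the Adk window 4 GC boxes and 3 CCAAT boxes, with a CCAAT and a GC box overlapping. Of all 33469 RefSeq windows of this length, 33.1% held GGGCGG, 29.7% GCGTG and 37.5% CCAAT. The TATA box was in 14.2% of them, the cAMP response core in 21.2%, the nuclear receptor core in 16.2% and the steroid receptor core in 20.7%, and none of these letters were in the 3 windows shown. GC content was 69.3% for Nt5e, 64.3% for Ada and 65.0% for Adk, against a median of 51.7% over all windows. The genes that were higher and the gene that was lower thus share GC boxes, which were not particular to them. Among the members not shown, the windows of Adora2b and Slc29a1 held 4 and 2 GC boxes (GC content 72.0% and 65.0%). Those of Entpd1 and Adora1 held 0 (47.0% and 59.0%). A match is a description of letters only.

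The comparison of model with control rats addresses ovulation induction without acupuncture. It is not independent of the comparison that chose the genes: the controls are the same, and the variance of both was estimated from all 9 arrays. Nt5e averaged 172 ± 15.4 in model and 81.0 ± 22.3 in control rats (intensity, SD, n = 3 each). On the scale of log2(intensity + 16) used for all fold changes, its log2 fold change was 0.98 (SE 0.16, 95% interval 0.61 to 1.35). Ada averaged 104 ± 19.3 in model and 373 ± 88.5 in control rats, with a log2 fold change of -1.68 (SE 0.28, 95% interval -2.32 to -1.04). Both had an unadjusted p under 0.001 and an adjusted p of 0.119 by limma, so neither passed over all genes. Adk averaged 486 ± 32.3 in model and 320.3 ± 89.9 in control rats, a log2 fold change of 0.61 (SE 0.17, adjusted p = 0.266 by limma). None of the 8 members passed at an adjusted p under 0.05, against 0.0273% of all genes (0.00911% higher and 0.0182% lower). At an unadjusted p under 0.05 there were 4 of 8 (Nt5e, Ada, Adk and Entpd1), against 12.4% of all genes (6.37% higher and 6.08% lower). The same 4 had groups that did not overlap, 2 of them higher and 2 lower, against 14.5% of all genes (7.79% higher and 6.73% lower).

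Control 43, the array that stood apart, had the lowest Ada and the highest Adk of the controls. Without it, Ada, Nt5e and Adk passed in model against control rats by limma, with log2 fold changes of -1.798 (adjusted p = 0.0146), 0.97 (0.0189) and 0.81 (0.00816). So did 1384 of all 10973 genes, against 3 with all 9 arrays, so nothing particular to these enzymes is read from the calls. In the other 8 fits with an array left out none of the members passed, and the log2 fold changes of Nt5e ranged from 0.82 to 1.15 and of Ada from -1.81 to -1.50 over all 9. The size of the Nt5e and Ada differences was thus as large without control 43, and the call depended on it.

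**Figure D2:**
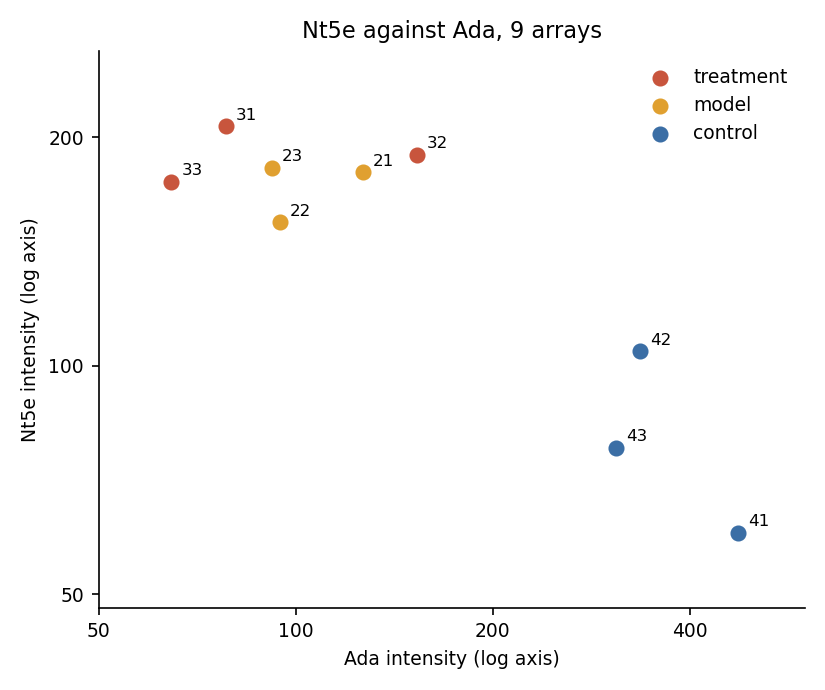
Nt5e intensity against Ada intensity, both on log axes, with 1 point per array numbered as in the labels. Treatment and model arrays lie together at 155 to 207 for Nt5e and 64.5 to 153 for Ada, apart from the control arrays at 60.3 to 105 and 309 to 474.

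Treatment rats were compared with model rats to see what electroacupuncture added to ovulation induction. Nt5e averaged 191 ± 16.1 in treatment and 172 ± 15.4 in model rats, a log2 fold change of 0.13 (SE 0.16, 95% interval -0.24 to 0.50, adjusted p = 0.698). Ada averaged 98.6 ± 47.7 in treatment and 104 ± 19.3 in model rats, a log2 fold change of -0.14 (SE 0.28, 95% interval -0.78 to 0.51, adjusted p = 0.826). Adk averaged 501 ± 25.6 in treatment and 486 ± 32.3 in model rats (log2 fold change 0.04, 95% interval -0.35 to 0.44, adjusted p = 0.919). Groups overlapped for all 3 enzymes, and the intervals leave room for moderate differences either way. The Ada value rested on single arrays: treatment 32 had the highest Ada of the 6 and treatment 33 the lowest, and the log2 fold change was -0.46 without treatment 32 and 0.08 without treatment 33. By limma 0 of 8 members passed, as did 0% of all genes, and 1 member, Adora1, had an unadjusted p under 0.05, higher, against 14.7% of all genes (4.57% higher and 10.1% lower). Groups did not overlap for 1 member that was higher (Adora1) and 2 that were lower (Entpd1 and Slc29a1), against 28.0% of all genes (8.10% higher and 19.9% lower), a share near the background. Adora1 passed the filter mainly through the treatment arrays, where it was highest. Entpd1 passed it only through the model and control arrays, where it was higher than in treatment rats. Nothing is read from the place of either gene in these counts.

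Treatment against control rats, the comparison that drew attention to these genes, is described without a test. Nt5e averaged 191 ± 16.1 in treatment and 81.0 ± 22.3 in control rats, a log2 fold change of 1.11 (SE 0.16). Ada averaged 98.6 ± 47.7 in treatment and 373 ± 88.5 in control rats, a log2 fold change of -1.82 (SE 0.28). Adk averaged 501 ± 25.6 in treatment and 320.3 ± 89.9 in control rats, a log2 fold change of 0.65 (SE 0.17). Past the adjusted threshold were the 2 members that led to the choice, Nt5e and Ada, and 0.510% of all genes (0.173% higher and 0.337% lower), from which nothing is read. That count was 0 without model 21, model 22, treatment 31, treatment 33 or control 41 and with the 6 compared arrays alone, and 1 without treatment 32 or control 42. As a further description, groups did not overlap for 3 members that were higher (Nt5e, Adk and Adora1) and 2 that were lower (Ada and Entpd1), against 23.3% of all genes (9.40% higher and 13.9% lower). Of these, Adora1 passed the filter mainly through its treatment arrays, and Entpd1 only through its model and control arrays. Nothing is read from the place of either gene. This comparison shares its control arrays with that of model against control rats. The dimmer probe set of Adk gave 176, 158 and 157 in treatment and 116, 146 and 159 in model rats, against 81.2, 93.9 and 127 in control rats, in the same direction, though its model and control arrays overlapped.

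**Figure D3:**
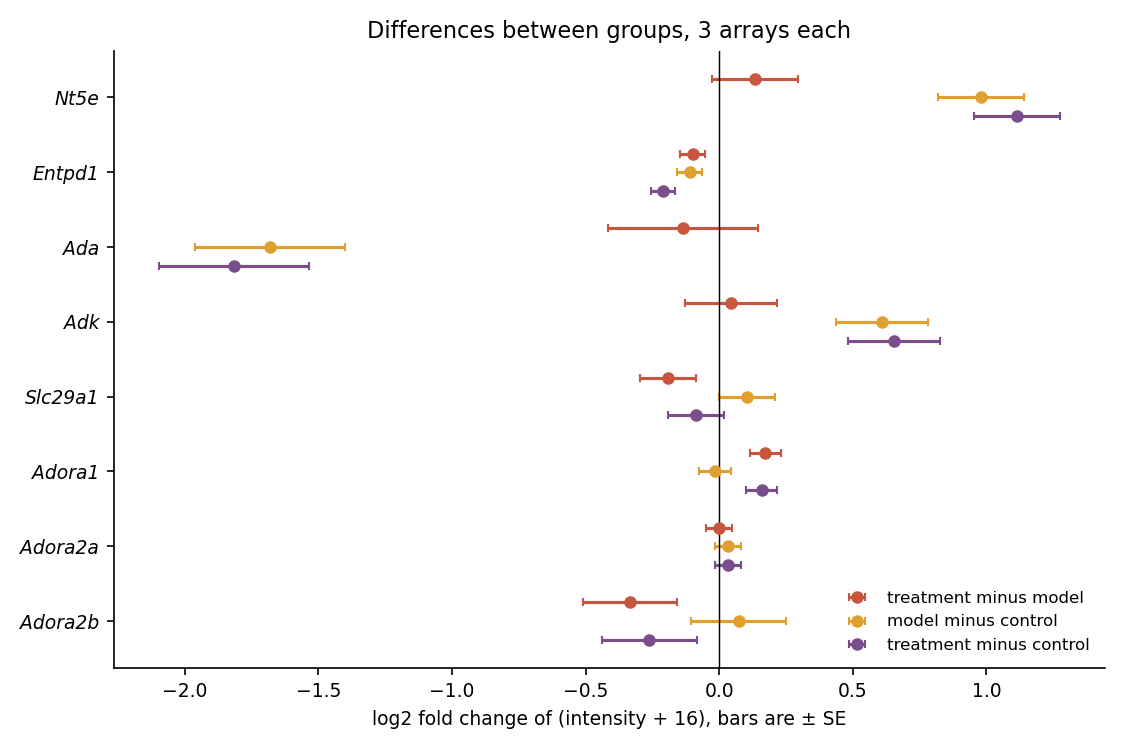
Log2 fold change of (intensity + 16) for each member, with bars of ± SE from the fit to all 9 arrays, for treatment minus model, model minus control and treatment minus control. Ada lies at -1.82 and -1.68 and Nt5e at 1.11 and 0.98 against control rats, and both lie near 0 between treatment and model rats.

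Upstream of Nt5e, Entpd1 was dim but ordered by group, at 15.0, 13.5 and 13.6 in treatment rats and 16.1, 16.1 and 16.4 in model rats, against 19.6, 18.1 and 18.7 in control rats. No pair of groups overlapped, with treatment rats lowest. Of all genes, 6.73% were lower without overlap in model against control, 19.9% in treatment against model and 13.9% in treatment against control rats. All treatment arrays lay below the 40th percentile of their array, so the gene passed the filter through its model and control arrays. The log2 fold change was -0.11 in model against control (SE 0.05, adjusted p = 0.387) and -0.10 in treatment against model rats (SE 0.05, adjusted p = 0.36), and neither passed by limma. In treatment against control rats it was -0.21 (SE 0.05). The number added before log2 set these sizes: with 1 or 64 added the treatment against control value was -0.39 or -0.09.

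Slc29a1, the equilibrative transporter that carries adenosine down its gradient, measured 25.8, 21.9 and 24.6 in treatment and 27.9, 28.3 and 33.4 in model rats, against 28.1, 20.7 and 31.9 in control rats. Control rats spanned nearly the whole range, while treatment and model rats did not overlap. The log2 fold change was -0.19 in treatment against model (SE 0.10, adjusted p = 0.406) and 0.10 in model against control rats (SE 0.10, adjusted p = 0.658). In treatment against control rats it was -0.09 (SE 0.10).

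Adora1 and Adora2a lay near the 40th percentile of the arrays, while Adora2b lay above it on all 9. No receptor gene passed by limma in the 2 tested comparisons. Adora2b, whose receptor raises cAMP and responds to high adenosine, measured 23.7, 16.3 and 19.2 in treatment and 36.2, 30.2 and 21.6 in model rats, against 22.7, 20.5 and 39.1 in control rats. All groups overlapped, and control 43 was the highest of the 9 arrays. The log2 fold change was -0.33 in treatment against model (SE 0.18, adjusted p = 0.399), 0.07 in model against control (SE 0.18, adjusted p = 0.865) and -0.26 in treatment against control rats. Without control 43 the last of these was -0.08 and the value in model against control 0.26.

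Adora1, whose receptor lowers cAMP, measured 18.9, 18.9 and 17.0 in treatment and 15.4, 14.3 and 13.5 in model rats, against 16.6, 14.6 and 13.02 in control rats. Treatment rats lay above both other groups, but the gene reached the 40th percentile on only 4 arrays, among them all 3 of treatment, and so passed the filter mainly through the group in which it was highest. Its log2 fold change was 0.17 in treatment against model (SE 0.06, adjusted p = 0.286) and -0.02 in model against control rats (SE 0.06, adjusted p = 0.922). In treatment against control rats it was 0.16. The other Adora1 probe set, at 2.97 to 4.25, lay below the filter on all 9 arrays.

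Adora2a, a receptor gene linked to raised cAMP and quiet immune cells, measured 15.3, 17.0 and 16.9 in treatment and 16.5, 15.96 and 16.7 in model rats, against 14.7, 15.5 and 16.8 in control rats. The log2 fold changes were 0.00 in treatment against model (SE 0.05, adjusted p = 1), 0.03 in model against control (SE 0.05, adjusted p = 0.77) and 0.03 in treatment against control rats. Its probe sets disagreed. The dimmer probe set measured 14.05, 15.8 and 13.3 in treatment and 12.5, 14.7 and 13.5 in model rats, against 20.6, 16.7 and 17.1 in control rats. There the 3 controls were the only arrays at or above the 40th percentile, so this probe set passed the filter through the group in which it was highest, and no fold change is given for it.

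The wider purine network was described through 101 other genes in 8 lists, of which 69 passed the filter. In model against control rats 0 of the 69 passed by limma (0.0273% of all genes did), and 7, or 10.1%, had an unadjusted p under 0.05, against 12.4% of all genes. In treatment against model rats 0 passed and 12, or 17.4%, had an unadjusted p under 0.05, against 14.7%. In treatment against control rats 1 passed, lower (0.337% of all genes passed lower), and 10, or 14.5%, had an unadjusted p under 0.05, against 17.4% (6.54% higher and 10.8% lower). The unadjusted shares lay near those of all genes, and 1 gene past the adjusted threshold is too few to compare. The median log2 fold changes of the 69 genes were 0.01, -0.08 and -0.06 in that order of comparisons, against 0.02, -0.05 and -0.04 over all genes.

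The gene that passed was Slc28a2, which encodes a sodium-driven transporter that concentrates purine nucleosides such as adenosine in the cell. It measured 36.0, 34.0 and 32.1 in treatment and 51.8, 102 and 52.8 in model rats, against 139.97, 146 and 102 in control rats. Treatment rats lay below both other groups, while model 22 and control 43 both measured 102. In treatment against control rats Slc28a2 fell by 1.53 on the log2 scale (SE 0.22, adjusted p = 0.0311 by limma), or by 0.97 with 64 added before log2. It kept an adjusted p under 0.05 in 4 of 9 fits with an array left out, and had 0.101 to 0.149 without a treatment array, control 41 or control 42. The log2 fold change was -0.71 in treatment against model (SE 0.22, adjusted p = 0.286) and -0.81 in model against control rats (SE 0.22, adjusted p = 0.255), where it passed without control 43 (adjusted p = 0.0338). The other nucleoside transporters tested were Slc29a3, at -0.38 in treatment against model rats (adjusted p = 0.286, groups not overlapping), and Slc29a2, which lay between -0.03 and 0.00 in all 3 comparisons.

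Among genes listed for the breakdown of ATP and ADP outside the cell, 10 of 13 were tested and 0 passed in any comparison. Entpd8 had the smallest p against control rats. It measured 29.8, 37.8 and 32.7 in treatment and 22.2, 24.0 and 29.8 in model rats, against 119, 136 and 24.4 in control rats. Control 43 lay with the other 6 arrays, and the log2 fold change of -1.19 in model against control rats (adjusted p = 0.352) was -1.797 without it (adjusted p = 0.00032). In treatment against control rats the values were -0.93 (adjusted p = 0.313) and, without control 43, -1.54 (adjusted p = 0.000643). Enpp2, which encodes autotaxin, came first in treatment against model rats, at 93.0, 71.9 and 90.8 in treatment and 251.2, 395 and 177 in model rats. Its log2 fold change of -1.46 (SE 0.47, adjusted p = 0.286) did not pass, and control rats spanned 70.4 to 297.

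Genes listed for purine salvage and breakdown inside the cell numbered 17 tested of 22, with 0 passing. In model against control rats 13 of 17 lay below 0 (median -0.13, against 0.02 over all genes). Nt5c3a, a cytosolic nucleotidase, was first there (-0.28, adjusted p = 0.396) and in treatment against control rats (-0.36, adjusted p = 0.198). Without control 43 it passed by limma in both, at -0.42 (adjusted p = 0.0218) and -0.50 (adjusted p = 0.0151). Of all genes, 1384 and 720 then passed. Ampd3, which deaminates AMP, was first in treatment against model rats, at 148, 165 and 146 in treatment against 67.0, 73.0 and 139.6 in model rats (log2 fold change 0.69, adjusted p = 0.319). With all 9 arrays none of these genes passed by limma.

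cAMP signalling genes, which act after adenosine and many other receptors, had 19 tested of 25 and 0 passing. Against model rats 14 of the 19 lay below 0 in treatment rats, with a median of -0.14 against -0.05 over all genes. Creb1, a transcription factor switched on by cAMP, came first at 35.03, 34.5 and 44.2 in treatment against 68.5, 63.6 and 58.0 in model rats (log2 fold change -0.56, SE 0.10, adjusted p = 0.286). Gnas, the stimulatory G protein subunit, was first in model against control rats (0.34, adjusted p = 0.326), and the adenylate cyclase gene Adcy4 in treatment against control rats (-0.39, adjusted p = 0.085). Without control 43 Gnas passed by limma in model against control rats (0.44, adjusted p = 0.0274), as did 1384 of all genes.

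Nucleotide receptor genes (P2rx and P2ry) had 6 tested of 14 and 0 passing by limma. P2rx4 came first in model against control rats (-0.67, adjusted p = 0.301). P2ry14 came first in treatment against model (-0.70, adjusted p = 0.32) and treatment against control rats (-0.90, adjusted p = 0.174). Of 6 genes linked to ATP release 4 were tested and 0 passed, with Gja1, the main gap junction gene of myometrium, first in model against control (-0.56, adjusted p = 0.388) and treatment against control rats (-0.73, adjusted p = 0.185) and Vdac1 first in treatment against model rats (0.24, adjusted p = 0.431). In de novo purine synthesis 9 of 13 were tested and 0 passed, led by Gmps in model against control (-0.29, adjusted p = 0.347), Ppat in treatment against model (0.26, adjusted p = 0.286) and Adss2 in treatment against control rats (0.56, adjusted p = 0.118). Dpp4, which anchors adenosine deaminase in humans, lay at 0.17, -0.11 and 0.05 in model against control, treatment against model and treatment against control rats (adjusted p of 0.574 to 0.863).

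**Figure D4:**
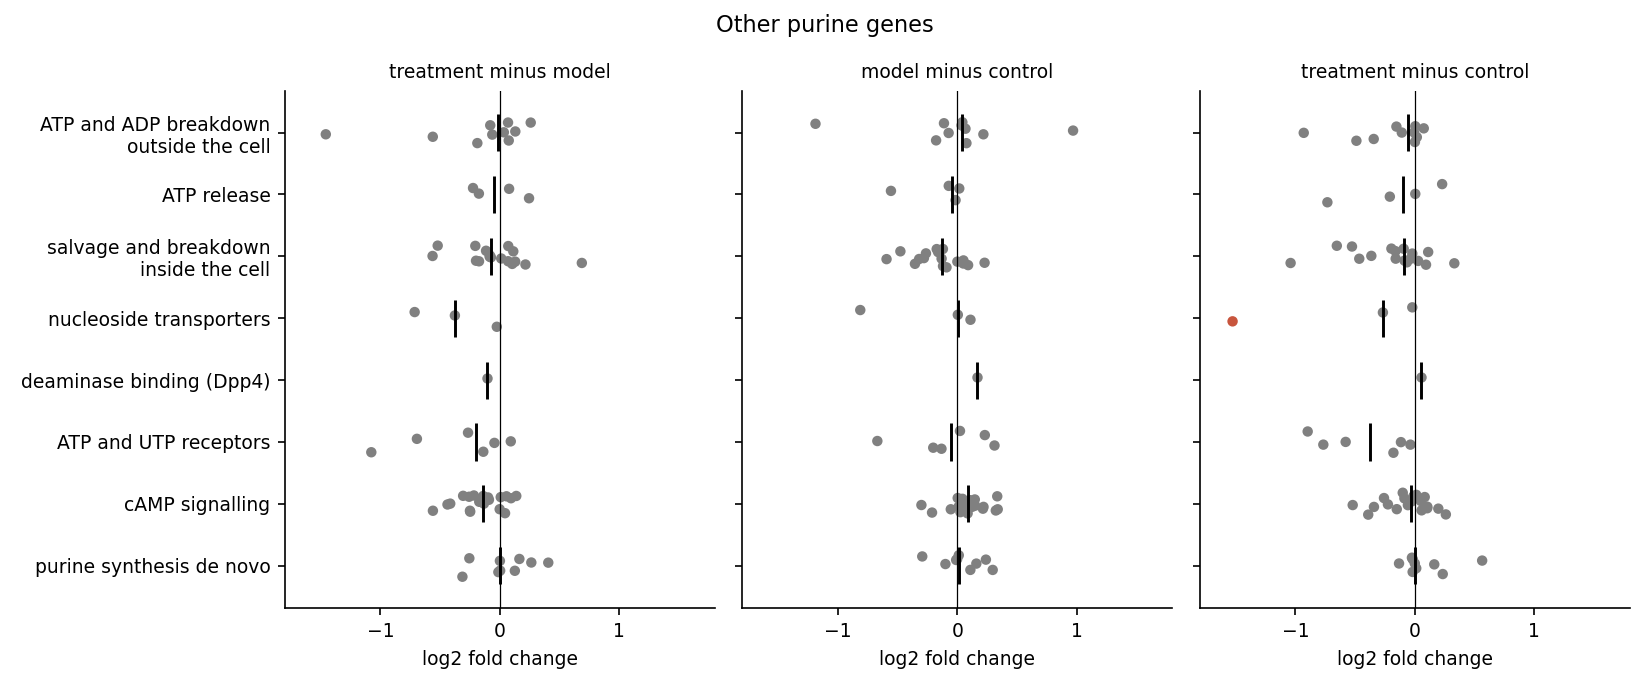
Log2 fold changes of the 69 tested genes of 8 purine lists in the 3 comparisons, with 1 point per gene, red for an adjusted p under 0.05 and grey otherwise, and a black line at each list's median. The red point is Slc28a2 at -1.53 in treatment minus control, and most other points lie close to 0.

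Markers of tissue makeup differed between arrays, and their part in these results was not tested beyond the values given here. Of 20 epithelial markers 17 were tested and 0 passed in any comparison. Their score, the mean centred log2 value, was -0.50 to 0.06 in treatment and -0.72 to -0.17 in model rats, against 1.403, 1.002 and -0.59 in controls 41, 42 and 43. Summed epithelial intensities were 4822 to 7386 in treatment and 4164 to 5728 in model rats, against 5292 to 21537 in control rats. The score of control 43 lay within the model range. For Epcam, Cdh1 and Prom1 all 3 controls lay above the model arrays (log2 fold changes of -0.68, -1.19 and -2.34, adjusted p of 0.176, 0.266 and 0.162 by limma). Model and control arrays overlapped for the other epithelial markers tested, and 16 of the 17 lay below 0 and 1 above. Of all genes, 6.73% were lower in model rats without overlap. On control 43 Ada measured 309 and Entpd8 24.4.

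Of 13 decidual markers 10 were tested and 1 passed, Igfbp1, higher in both model and treatment against control rats (log2 fold changes 4.19 and 3.97, adjusted p of 0.0355 and 0.0162 by limma). The score was -0.10 to 0.20 in treatment and 0.31 to 0.41 in model rats, against -0.54 to -0.26 in control rats, and summed intensities were 4342 to 4662 in treatment and 4607 to 4956 in model rats, against 2516 to 3212 in control rats. The members differed in sign: in treatment against control rats 5 of the 10 lay above 0 and 5 below (median 0.04), and in model against control rats 9 above and 1 below (median 0.42). Igfbp1 had by far the highest fold change of the list, and Des is also on the smooth muscle list. The part of these markers in the enzyme levels was not tested. Smooth muscle markers, 15 of 15 tested and 0 passing, scored -0.05 to 0.24 in treatment and 0.03 to 0.30 in model rats, against -0.73, -0.045 and -0.08 in controls 41, 42 and 43. Model and control scores did not overlap, and 15 of 15 markers lay above 0 in both comparisons with control rats (medians 0.40 in model and 0.39 in treatment against control). This was the direction of Nt5e and Adk. Stromal markers also lay above 0 for 10 of 12 in model and 6 of 12 in treatment against control rats. The part of either list in the enzyme levels was not tested. Smooth muscle sums were 30470 to 37092 in treatment and 31917 to 37771 in model rats, against 19965 to 32115 in control rats. Stromal markers, 12 of 12 tested, scored -0.51 to 0.13 in treatment and -0.14 to 0.40 in model rats, against -0.50 to 0.53 in control rats, and macrophage markers, 12 of 14 tested, -0.55 to -0.09 and -0.64 to 0.84, against -0.36 to 0.52. Endothelial markers, 13 of 15 tested, scored -0.815 to 0.045 in treatment and 0.16 to 0.26 in model rats, against -0.19 to 0.61 in control rats. In treatment against model rats 13 of 13 lay below 0 (median -0.48, against -0.05 over all genes), with 0 passing by limma. Uterine identity scores were -0.42 to -0.165 in treatment and -0.07 to 0.33 in model rats, against 0.09 to 0.31 in control rats. Adipocyte scores, 6 of 10 markers tested, were -0.23 to 0.001, 0.14 to 0.39 and -0.53 to 0.13 in the same order. No marker was listed at 0.

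**Figure D5:**
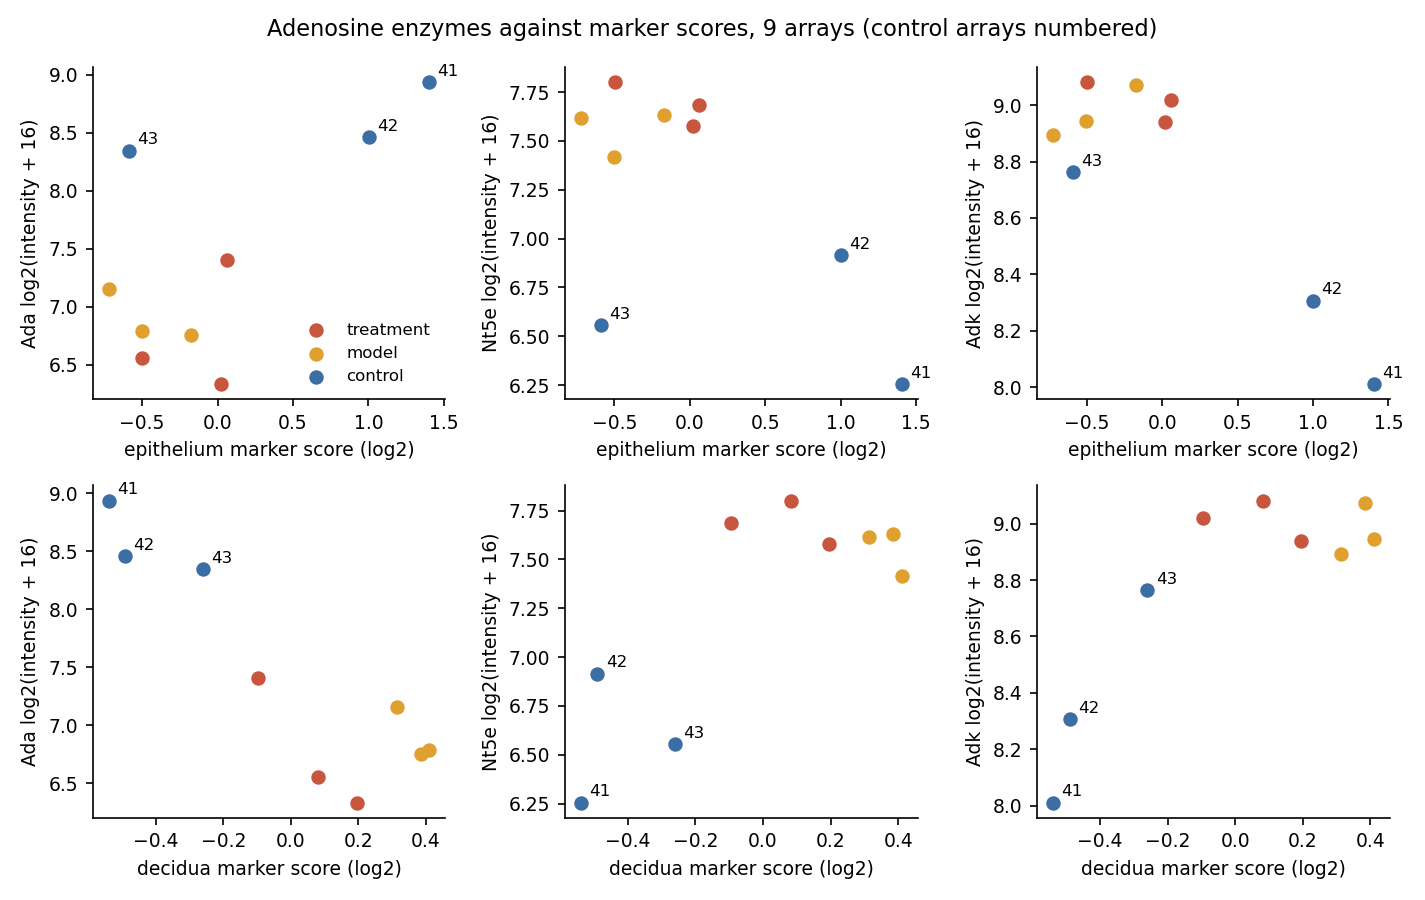
Log2(intensity + 16) of Ada, Nt5e and Adk against the epithelial score (top) and the decidual score (bottom), with 1 point per array and the control arrays numbered. Control 43 lies at -0.59 on the epithelial score, apart from controls 41 and 42 at 1.403 and 1.002, and on the decidual score the 3 controls lie lowest, at -0.54 to -0.26.

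Across all 10973 genes, the patterns most like Ada over the 9 arrays were those of Clcn3, an endosomal chloride and proton exchanger (Pearson r = 0.983), Tmem254 (0.983), Card14, a signalling scaffold of epithelial cells (0.971), the tropomyosin gene Tpm3 (0.968) and Stx18 (0.968). Those most like Nt5e were the glutamine transporter gene Slc38a1 (0.966), Exoc6b of the exocyst (0.966), Igfbp6 (0.961), Col4a5, a basement membrane collagen chain (0.959), and Ehd2 (0.951). These correlations describe 9 arrays that share their groups, in which both enzymes split the controls from the rest.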

How the data were processed

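Total RNA of rat uterine tissue was hybridised to Affymetrix expression arrays, and the deposited table holds 1 normalized intensity on a linear scale per probe set and array. MAS5 is named in the submitters' processing notes, while the sources used here state neither its settings nor its scaling. The table held 31099 probe sets. Affymetrix controls (57) were left out, and the platform annotation gave 1 symbol for 20826 of the rest, several for 436 and none for 9780. Symbols were updated through a RefSeq gene table.

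Values were taken as log2(intensity + 16). Probe sets at or above the 40th percentile of their array on at least 3 of 9 arrays were kept (19326), and a gene was read from its brightest of these on average, leaving 10973 genes. Using limma 3.58.1 (R 4.3.3), a model of the 9 arrays by group was fitted with a variance trend, and the 3 differences between groups were tested two-sided. The code was checked on simulated data. Benjamini-Hochberg adjusted p-values cover all genes of a comparison, with a threshold of 0.05. The members and gene lists were chosen with earlier results of these data known. All members were named. Of each purine list and comparison, genes that passed were named, or the gene with the smallest p. For Ada and Nt5e the 5 genes with the highest correlation were named. Marker scores are means of log2 values centred on each gene's mean. Promoter windows came from RefSeq. The number of arrays limits the precision. Other settings tried were an added value of 1 or 64, quantile normalization, median centring, no filter or the 60th percentile, other variance models, array weights, the 6 compared arrays alone, means over probe sets, a replicate block and each array left out.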

Additional observations from a re-analysis of the deposited data

How the results depend on the processing

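Beside the 9 fits that left out an array, 12 other settings were tried. Of 126 counts, 103 stayed within 1.5 times the reported value, and of 489 member fold changes 462 kept their direction and side of the threshold or moved by under 1 SD. Many of these fold changes could not move, because the variance model and the arrays of the third group do not enter them. Counts of members in treatment against control rats describe the values that chose them and test nothing. With array weights 3 members were past the threshold in model against control rats (reported 0) and 4 in treatment against control rats (reported 2), and 7 and 9 purine genes (reported 0 and 1). Genes passing over the whole array were then 852 and 1277, against 3 and 56. Members past the threshold in treatment against control rats numbered 1 under quantile normalization, and 0 with the 6 compared arrays alone. With an array left out, members past it ranged from 0 to 3 in both comparisons with controls, and passing purine genes from 0 to 8 in model against control and 0 to 4 in treatment against control rats. Without control 43, 1384 and 720 genes passed over the whole array. Median centring, other variance models, other filters and probe set means moved none of the member and purine gene counts beyond 1.5 times, and only 3 members passed the filter at the 60th percentile. In treatment against model rats 0 members and 0 purine genes passed under every setting tried. The cause of these changes was not tested.

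A replicate block from the last digit of the array number left 0 members and 0 purine genes passing in treatment against control rats (Slc28a2 -1.53, adjusted p = 0.0505), and 0 in the others. The digits share only a number: deviations of same-digit arrays from their group means correlated from -0.41 to 0.31.

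Directions turned for these genes, all with reported log2 fold changes near 0. For Adora2a, means over probe sets gave -0.086 in model against control and -0.067 in treatment against control rats, and in treatment against model rats it was -0.00048 with 1 added, -0.024 under quantile normalization, -0.0016 under median centring and -0.0056 with array weights. Slc29a1 was 0.067 in treatment against control rats with array weights, and Dpp4 -0.029 with 64 added. Leaving out arrays gave -0.455 to 0.08 for Ada in treatment against model rats and -0.013 to 0.024 for Adora2a. In model against control rats it gave -0.055 to 0.029 for Adora1, -0.04 to 0.257 for Adora2b and -0.0052 to 0.19 for Slc29a1, and in treatment against control rats -0.047 to 0.151 for Dpp4.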
